A study of Mus musculus with 32 samples.

Results

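The 7 transcripts described here encode subunits of voltage-gated calcium channels and were read in brain arteries of mice lacking Notch3, of mice overexpressing a mutant Notch3, and of their controls. They were chosen by name as Cacna1c, Cacna1d, Cacna1g, Cacna1h, Cacnb2, Cacnb3 and Cacna2d1, and all 7 were found among the 55357 Ensembl genes of the count table. The arteries came from 32 mice, each sequenced as 1 library, in 4 groups of 8. Mice without functional Notch3 in any tissue (Notch3-/-) and Notch3+/+ mice were aged 3 months. TgNotch3R169C mice, a model of the inherited small vessel disease CADASIL, and WT mice (labelled non-Tg) were aged 12 months. The transgene is a phage P1-derived artificial chromosome with mutant rat Notch3. It sits on the X chromosome, and these mice also express mouse Notch3. Both lines had been backcrossed onto C57BL/6, no group received a treatment, and the labels do not give the sex of the mice.

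A voltage-gated calcium channel opens when the membrane is depolarized and lets calcium into the cell. Its α1 subunit forms the pore and senses the voltage. L-type channels, with a pore encoded here by Cacna1c (Cav1.2) or Cacna1d (Cav1.3), open at strong depolarization and conduct long enough to feed contraction, and Cav1.2 is the main route of calcium entry in arterial smooth muscle cells (SMCs). T-type channels, encoded here by Cacna1g (Cav3.1) and Cacna1h (Cav3.2), open at more negative voltages and close quickly. β subunits (Cacnb2, Cacnb3) bind L-type pores inside the cell and promote their delivery to the membrane, and the α2δ-1 subunit (Cacna2d1), the binding site of gabapentin, promotes channel abundance from outside. Neurons use all of these genes as well, and arteries dissected from the brain can carry neural RNA, so markers of neurons and of SMCs were read in the same libraries.

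The 4 pore genes differ at the selectivity filter, where each of the 4 repeats of the protein places 1 acidic residue in the pore, and the coding sequence shows which genes form which class of channel. The sequences were read from the longest open reading frame of each gene in the GENCODE vM21 transcripts, 5′ to 3′, as 27 bases around the codon of that residue, which is in capitals. They were found by translating the frame and searching for threonine or serine, any residue, glutamate or aspartate, 1 of glycine, aspartate, alanine or asparagine, and tryptophan, and each of the 4 genes held 4 such places. All 4 repeats of Cacna1c and Cacna1d had a glutamate codon. Cacna1g and Cacna1h had a glutamate codon in the first repeats and an aspartate codon in the last repeats, which are shown here with their positions in the transcript.
Cacna1c repeat III, bases 3406 to 3432: gtctccaccttcGAAgggtggccagag
Cacna1d repeat III, bases 3367 to 3393: gtctcaacttttGAGggctggcccgcg
Cacna1g repeat III, bases 4930 to 4956: ctggcctccaagGATggctgggttgac
Cacna1h repeat III, bases 4863 to 4889: ctgtcatccaagGATggctgggtaaac
Cacna1c repeat IV, bases 4483 to 4509: tgtgccaccggaGAGgcctggcaggac
Cacna1d repeat IV, bases 4282 to 4308: tgtgcaacagggGAAgcctggcaggag
Cacna1g repeat IV, bases 5878 to 5904: gtctccactggtGACaactggaatggt
Cacna1h repeat IV, bases 5757 to 5783: gtgtccactgggGACaactggaatggg

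The pores also differ in the site that holds a β subunit, the α interaction domain in the loop after the first repeat. A search for its consensus found 1 match each in Cacna1c and Cacna1d and 0 in Cacna1g and Cacna1h, so the β subunits described here have a matching site in the L-type pores of this set. The 54 bases of the match, shown without capitals, were identical at 49 positions.
Cacna1c α interaction domain: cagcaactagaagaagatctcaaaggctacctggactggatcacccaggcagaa
Cacna1d α interaction domain: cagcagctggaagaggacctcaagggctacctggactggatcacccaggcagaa

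Total counts per library ranged from 20289487 to 54481934, and each of the 7 transcripts had at least 211 counts in every library. Notch3 followed the labels: it was at 13.7 to 18.5 CPM (the count per 1000000 counts of a library) in Notch3-/- mice against 65.8 to 98.1 CPM in Notch3+/+ mice, and at 108 to 219 CPM in TgNotch3R169C mice against 60.1 to 85.0 CPM in WT mice. The labelled tissue was checked on 8 SMC markers and 12 neuron markers, none of which was at 0 in any library. The summed SMC markers ranged from 2439 to 4361 CPM in Notch3+/+ mice, from 1669 to 2607 CPM in Notch3-/- mice, from 1355 to 2111 CPM in WT mice and from 1135 to 1763 CPM in TgNotch3R169C mice. The summed neuron markers ranged from 320 to 1207, from 265 to 638, from 294 to 944 and from 456 to 1373 CPM in the same order of groups. RNA of other tissue also varied between libraries: choroid plexus markers summed to 227 to 25904 CPM and pituitary markers to 12.1 to 9866 CPM, with 6 of 8 pituitary markers at 0 in some library. In such bulk samples fewer cells of a type and less RNA per cell cannot be told apart.

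The β3 and Cav3.1 transcripts were the most abundant of the 7 once gene length was taken into account. Over the 32 libraries the mean level per kb of exon was 13.2 CPM for Cacnb3, 7.73 for Cacna1g, 4.39 for Cacna1d, 3.76 for Cacna2d1, 3.55 for Cacna1c, 2.83 for Cacna1h and 0.865 for Cacnb2. Neighbours in this order kept it in 29 to 32 of 32 libraries, other than Cacna2d1 and Cacna1c, which did so in 18 of 32 and do not differ beyond their spread. The order rests on gene models, because Cacnb2 has 13228 exon bases in all but 3945 in its longest coding transcript, and Cacna1c has 21191 against 13162. Per kb of the longest coding transcript the order was the same, but Cacna1d and Cacna2d1, Cacna2d1 and Cacna1c, and Cacna1h and Cacnb2 then kept it in 20, 20 and 24 of 32 libraries.

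**Figure D1:**
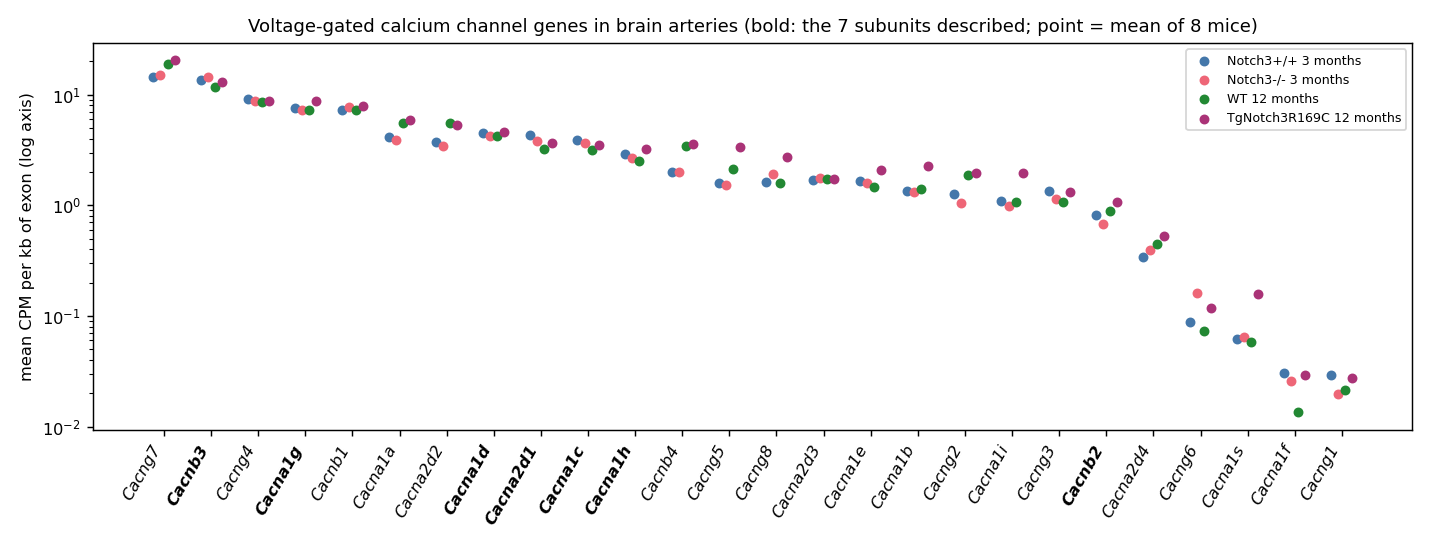
Mean CPM per kb of exon (log axis) of 26 voltage-gated calcium channel genes, 1 point per group of 8 mice, with the 7 subunits described here in bold. Cacng7 and Cacnb3 lie highest, Cacnb2 is the lowest of the 7, and Cacna1s, Cacna1f, Cacng1 and Cacng6 lie far below all 7.

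Among the other 19 genes of the family, pores used mainly by neurons were present as well. Cacna1a, the P/Q-type pore of presynaptic terminals, stood at 4.11 ± 0.866 CPM per kb of exon (SD, n = 8) in Notch3+/+ mice. Cacna1b, the N-type pore, stood at 1.33 ± 0.697 and Cacna1e, the R-type pore, at 1.66 ± 0.783 CPM per kb in these mice. Cacna1s, the L-type pore of skeletal muscle, stood at 0.0617 ± 0.0279 CPM per kb. Cacnb1, a β subunit outside the set, stood at 7.33 ± 0.641 CPM per kb, between Cacnb3 and Cacnb2. Cacna1f, the L-type pore of the retina, and Cacng1 and Cacng6 had too few counts to be tested in any comparison, and the other 16 were tested.

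Of the L-type pores, Cacna1c ranged from 69.7 to 95.6 CPM (median 83.1) in Notch3+/+ mice, from 60.9 to 91.6 CPM (median 79.7) in Notch3-/- mice, from 52.8 to 76.3 CPM (median 69.2) in WT mice and from 62.2 to 92.8 CPM (median 73.8) in TgNotch3R169C mice. The groups overlapped, and the 8 WT mice all lay below the Notch3+/+ mean of 82.8 CPM. Cacna1d, the other L-type pore of the set, ranged from 47.0 to 67.4 CPM (median 57.0), from 45.0 to 60.6 CPM (median 54.1), from 43.4 to 62.5 CPM (median 54.8) and from 44.2 to 72.2 CPM (median 57.2) in the same order of groups. The 4 ranges overlapped, and TgNotch3R169C mice had both the widest spread and the highest mouse, replicate 5.

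Of the T-type pores, Cacna1g ranged from 64.4 to 87.5 CPM (median 77.1) in Notch3+/+ mice, from 61.5 to 79.9 CPM (median 73.5) in Notch3-/- mice, from 46.4 to 112 CPM (median 65.4) in WT mice and from 74.1 to 116 CPM (median 84.0) in TgNotch3R169C mice. The WT mice fell apart, with replicates 3, 6 and 7 at 96.6, 98.5 and 112 CPM and the other 5 between 46.4 and 65.7 CPM. Cacna1h ranged from 23.8 to 35.1 CPM (median 26.5), from 19.4 to 37.0 CPM (median 21.9), from 20.8 to 27.9 CPM (median 25.0) and from 23.9 to 53.6 CPM (median 28.7) in the same order of groups. In Notch3-/- mice it also fell apart, with replicates 2, 3 and 5 at 37.0, 35.5 and 32.5 CPM and the other 5 at 22.8 CPM or lower. In TgNotch3R169C mice the highest value was that of replicate 6, above the next mouse at 35.8 CPM.

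Of the β subunits, Cacnb2 ranged from 7.11 to 14.9 CPM (median 10.4) in Notch3+/+ mice, from 6.70 to 11.6 CPM (median 8.95) in Notch3-/- mice, from 8.09 to 15.1 CPM (median 11.7) in WT mice and from 8.71 to 26.3 CPM (median 12.3) in TgNotch3R169C mice. The highest mouse, TgNotch3R169C replicate 5, also had the highest neuron sum of all libraries, 1373 CPM. Cacnb3 ranged from 45.0 to 88.2 CPM (median 48.5), from 45.6 to 72.2 CPM (median 55.5), from 37.3 to 58.7 CPM (median 46.4) and from 44.3 to 62.8 CPM (median 51.9) in the same order. Its highest value came from Notch3+/+ replicate 3, whose neuron sum of 1207 CPM was the highest of its group. The α2δ-1 transcript, Cacna2d1, ranged from 42.6 to 77.6 CPM (median 47.8), from 43.9 to 53.3 CPM (median 46.1), from 32.4 to 51.8 CPM (median 40.6) and from 34.2 to 62.5 CPM (median 44.4), and Notch3+/+ replicate 3 was again the highest.

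**Figure D2:**
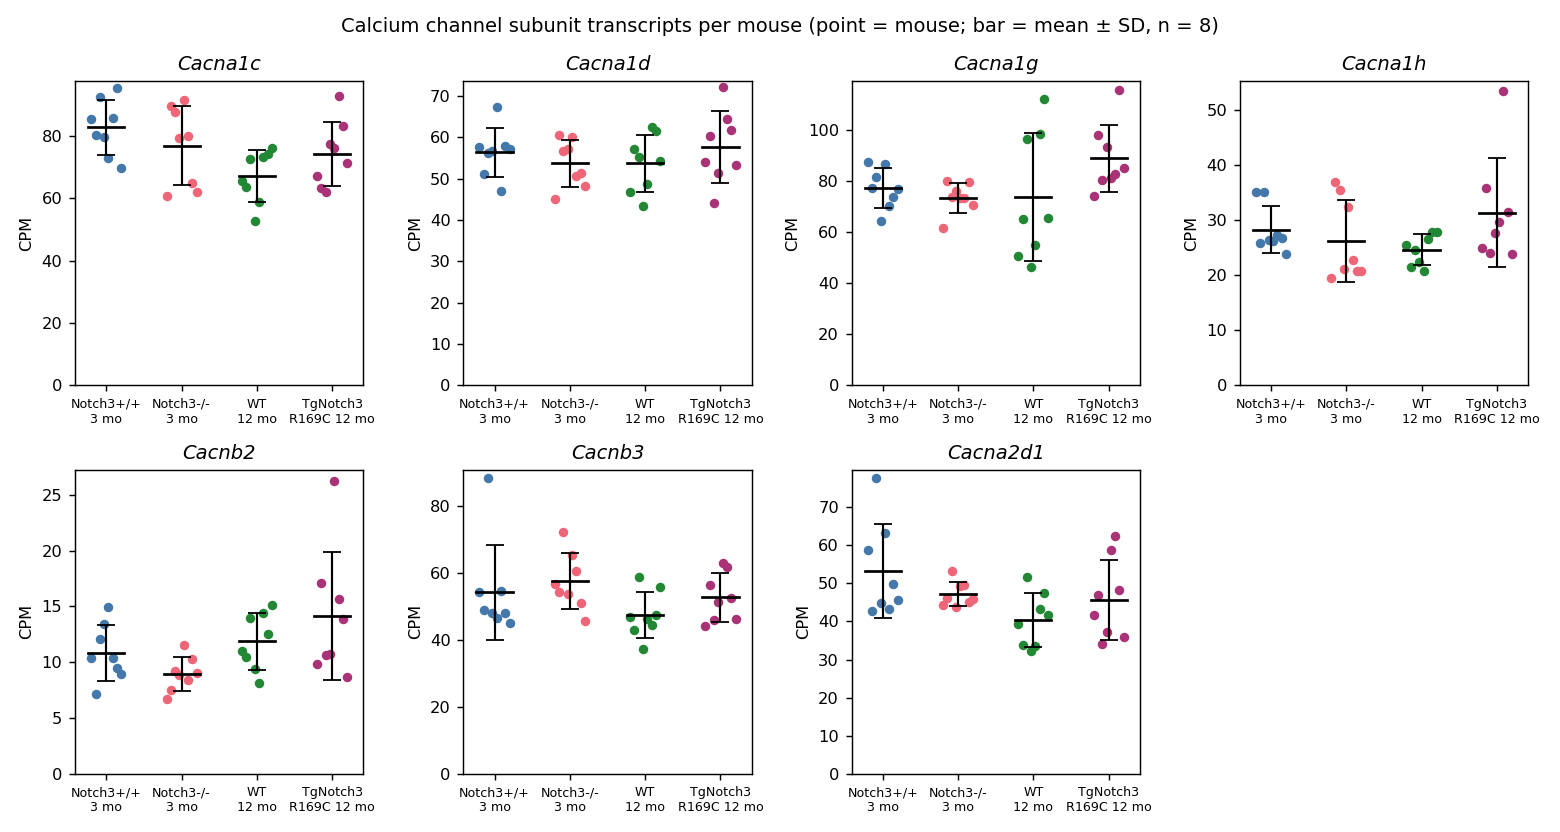
CPM of each subunit transcript (vertical axis, from 0) in each mouse, by group, with the mean and SD of the 8 mice as bars. The groups overlap in all 7 panels, and single mice stand above their group for Cacna1h (TgNotch3R169C), Cacnb2 (TgNotch3R169C) and Cacnb3 (Notch3+/+).

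Loss of Notch3 was accompanied by no called change in any of the 7 subunits, while genes of the contractile apparatus were lower in the same libraries. The comparison of Notch3-/- with Notch3+/+ mice asked which arterial transcripts depend on NOTCH3. The quasi-likelihood test of edgeR, adjusted by Benjamini-Hochberg over 17714 genes, called 0 of 7 subunits, against 0.649% of all genes. At an unadjusted p under 0.05 it again counted 0 of 7, against 7.69% of all genes, and DESeq2 called 0 of 7. The log2 fold change was negative for 6 of 7, with a median of -0.10 beside -0.0011 over all genes tested.

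All 7 intervals of this comparison held 0. Cacna1c had a log2 fold change of -0.10 (95% CI -0.31 to 0.10) and Cacna1d of -0.07 (-0.22 to 0.09). Cacna1g had -0.07 (-0.21 to 0.07) and Cacna1h -0.11 (-0.42 to 0.20). Cacnb2 had the largest estimate of the 7, -0.27 (-0.57 to 0.02), and its adjusted p by edgeR was 0.709. Cacnb3 had 0.08 (-0.19 to 0.36) and Cacna2d1 -0.17 (-0.41 to 0.06). With the SMC marker mean as a covariate the estimates were further from 0 for Cacna1g at -0.29, which is outside the interval above, for Cacna1h at -0.35, for Cacna2d1 at -0.37 and for Cacna1d at -0.15, and 0 of 7 were called. The SMC marker sums of the 2 groups overlapped little, so this fit can hardly separate the markers from the genotype. With it 16 of all genes were called, against 115 without it. Without Notch3+/+ replicate 3 Cacna2d1 had -0.07 and Cacnb3 0.22, and over the libraries left out in turn Cacna1c ranged from -0.14 to -0.05, Cacna1d from -0.10 to -0.02, Cacna1g from -0.10 to -0.03 and Cacna1h from -0.19 to -0.05. Cacna1h lies on chromosome 17, as Notch3 does, and of the 861 genes tested on that chromosome 2.9% were called.

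In the lists around the channel 2 genes were called in the Notch3-/- comparison, both of them in calcium handling and contraction. Of the other family genes 0 of 16 were called, and of 18 regulators of the channels, among them calmodulins, kinases and small G proteins that inhibit the pore, 0 were called. Of 19 genes of calcium handling and contraction 2 fell by edgeR. Pln, which encodes the SERCA inhibitor phospholamban, fell by 1.31 in log2 units (SE 0.161, adjusted p 0.000344), and Mylk, the kinase that starts contraction by phosphorylating myosin, fell by 0.56 (SE 0.0950, adjusted p 0.00705). Of the 8 SMC markers 6 fell, with a median of -0.63 over the list. Des, also an SMC marker, went the other way, with a mean of 72.9 CPM in Notch3-/- against 60.1 CPM in Notch3+/+ mice, and was not called. Of the 12 neuron markers 0 were called, with a median of -0.07.

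Within each library the subunits were also set against the SMC markers, as the log2 ratio of a subunit to the mean of the 8 markers. Since the lower SMC markers were already seen, these ratios are given as a description, and the p-values computed for them are left out. In Notch3-/- mice the mean ratio was higher than in Notch3+/+ mice for all 7, by 0.29 for Cacnb2 to 0.65 for Cacnb3, and by 0.43 for Cacna1c. The ratios to the mean of the 12 neuron markers differed by -0.30 for Cacnb2 to 0.07 for Cacnb3.

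In TgNotch3R169C mice the 7 subunits all had positive estimates, and 0 of 7 were called. This comparison asked what excess mutant Notch3 changes in arteries at 12 months, in which 0.113% of the 17731 genes tested were called by edgeR. At an unadjusted p under 0.05 the count was 1 of 7, against 7.27% of all genes, and DESeq2 called 0 of 7. The median log2 fold change of the 7 was 0.17, against -0.0074 over all genes, of which 8342 of 17731 had a positive estimate. The subunits went together between libraries, as given below, so their shared sign, here and in the other comparisons, is not 7 independent results.

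Cacna1h was the subunit with the smallest p in TgNotch3R169C mice. Its log2 fold change was 0.35 (95% CI 0.04 to 0.66, unadjusted edgeR p 0.0299, adjusted p 0.679), and without replicate 6, the highest TgNotch3R169C mouse, it was 0.20. Cacna1g had 0.27 (-0.10 to 0.64), with the WT mice spread as described above. Among the L-type pores Cacna1c had 0.14 (-0.05 to 0.33) and Cacna1d 0.10 (-0.09 to 0.30). Among the auxiliary subunits Cacnb2 had 0.25 (-0.18 to 0.68), Cacnb3 0.15 (-0.05 to 0.35) and Cacna2d1 0.17 (-0.11 to 0.46). Cacnb2 had 0.07 without TgNotch3R169C replicate 5. Without TgNotch3R169C replicate 6 Cacna2d1 had 0.10 and Cacna1c 0.09, and Cacna1d had 0.06 without TgNotch3R169C replicate 5 or WT replicate 4. None of the 7 intervals reached a change of 1 on the log2 scale, a doubling.

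Neuron markers moved in the same direction as the subunits in this comparison. Their median log2 fold change was 0.27, 11 of 12 were positive and 0 were called. Adding that marker mean to the fit as a covariate made the estimates of the subunits smaller. Cacna2d1 went from 0.17 to 0.00088 and Cacna1d from 0.10 to 0.0055 on the log2 scale. Cacnb2 went from 0.25 to -0.03, Cacna1h from 0.35 to 0.20 and Cacna1g from 0.27 to 0.17. All 7 adjusted p-values by edgeR were 0.992 or higher in that fit. The SMC markers had a median of -0.23 with 0 of 8 called, and the choroid plexus markers -1.08 with 0 of 8 called. With the SMC marker mean as a covariate Cacnb2 had 0.01, Cacna1d 0.02 and Cacna1h 0.41. The log2 ratio to the SMC markers was higher than in WT mice by 0.31 for Cacna1d to 0.54 for Cacna1g. That to the neuron markers differed by -0.25 for Cacna1d to -0.02 for Cacna1g, and both are a description.

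The surrounding lists gave no called gene in TgNotch3R169C mice by edgeR: 0 of 16 other family genes, 0 of 18 regulators and 0 of 19 genes of calcium handling and contraction, against 4, 1 and 5 at an unadjusted p under 0.05, where all genes gave 7.27%. The other family genes had a median of 0.17, close to that of the 7 subunits.

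**Figure D3:**
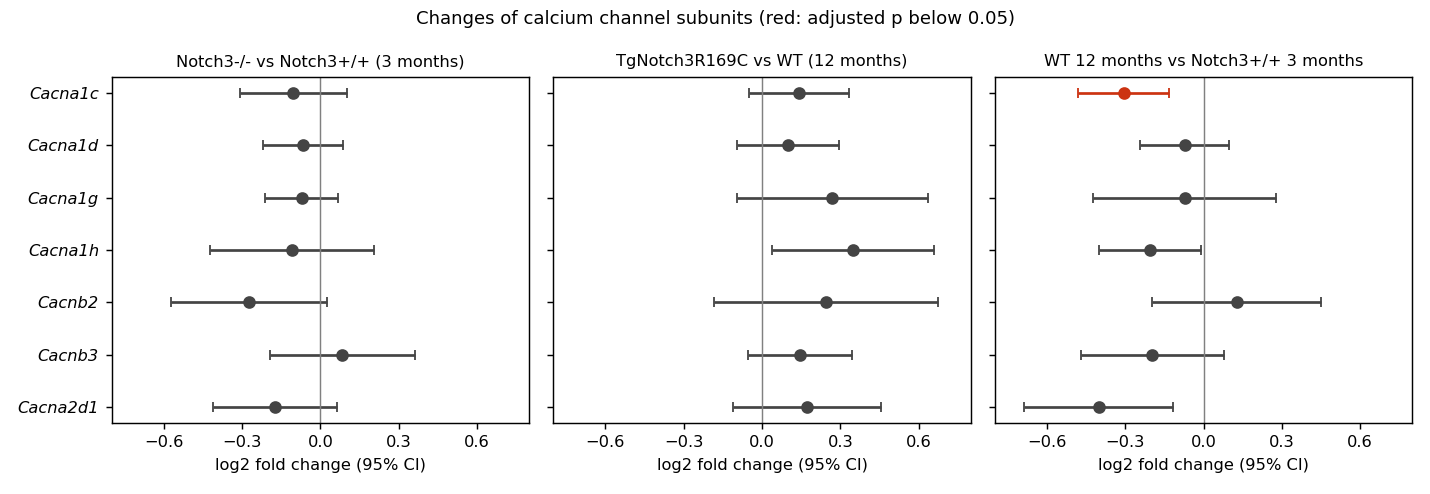
Log2 fold change of each subunit with its 95% CI in the 3 comparisons of 8 against 8 mice, with an adjusted p under 0.05 in red. Cacna1c between the control groups is the single red point. The Notch3-/- estimates lie below 0 other than that of Cacnb3, and the TgNotch3R169C estimates lie above 0.

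The changes of the mutants were compared in 1 fit of all 32 libraries, as the log2 fold change in TgNotch3R169C minus that in Notch3-/- mice. The mutants differ in age and in mouse line as well as in genotype, and each was set against its own controls. The part of age or line in this difference therefore cannot be told apart from that of genotype. The difference was positive for 7 of 7 subunits (median 0.34, beside 6e-04 over all genes) and called for 0 of 7 by edgeR, against 0.35% of 18555 genes. At an unadjusted p under 0.05 there were 2 of 7, against 8.62% of all genes, and DESeq2 called 0. These were Cacna1h with a difference of 0.46 (95% CI 0.02 to 0.90, adjusted p 0.556) and Cacnb2 with 0.53 (0.0024 to 1.05, adjusted p 0.578). The L-type pores differed by 0.25 (-0.03 to 0.53) for Cacna1c and by 0.17 (-0.08 to 0.42) for Cacna1d. The neuron markers gave a median difference of 0.44, with 0 of 12 called and 1 of 12 at an unadjusted p under 0.05. The SMC markers gave a similar median, 0.42, with 7 of 8 positive, 1 called and 7 at an unadjusted p under 0.05. The part of either in the subunits' differences was not tested. Of the surrounding lists 1 gene was called, Pln, with a difference of 1.03 (SE 0.206, adjusted p 0.0106).

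Between the control groups, Cacna1c was lower in the older mice. WT mice aged 12 months and Notch3+/+ mice aged 3 months differ in age and in mouse line, which cannot be told apart, and each group is also the control of a mutant. Cacna1c fell by 0.31 on the log2 scale (SE 0.0822, 95% CI -0.48 to -0.13, adjusted p 0.0308), which is 0.809 of the level in Notch3+/+ mice, and was lower than their mean in 8 of 8 WT mice. It was the 1 subunit of 7 called by edgeR, in a comparison in which 7.92% of 17643 genes were called and 4.05% were called lower, so that 1 of 7 is near the background. At an unadjusted p under 0.05 the count was 3 of 7, against 24.2% of all genes.

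The other subunits did not pass in that comparison. Cacna2d1 had a log2 fold change of -0.40 (95% CI -0.69 to -0.12, adjusted p 0.0747) and was called by DESeq2. Cacna1h had -0.20 (-0.40 to -0.01, adjusted p 0.185). The remaining estimates were -0.07 for Cacna1d, -0.07 for Cacna1g, -0.20 for Cacnb3 and 0.13 for Cacnb2, each with an interval that held 0. The call of Cacna1c depended on what else was fitted: with the mean of the SMC markers as a covariate the estimate was -0.21 (adjusted p 0.602), with that of the choroid plexus markers -0.16 (adjusted p 0.355) and with that of the neuron markers -0.37 (adjusted p 0.0115), all by edgeR. It was called in 10 of the 16 fits that left out 1 library, and lost without Notch3+/+ replicate 1, 2, 6 or 7 or WT replicate 2 or 5 (adjusted p up to 0.0665).

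Markers of several kinds of cell differed between these control groups. All 8 SMC markers fell, with a median of -0.81, and 6 of 8 choroid plexus markers rose, with a median of 4.29. Of 8 markers each, 3 of oligodendrocytes and 2 of pericytes rose, and 3 of fibroblasts, 1 of endothelium and 1 of macrophages and microglia fell. Of the astrocyte markers 1 rose and 1 fell. With 7.92% of all genes called in this comparison, 1 of 8 is near the background. Of the neuron markers 0 of 12 were called, with a median of 0.31, and of the pituitary markers 0 of the 5 tested. The log2 ratio to the SMC markers was higher in WT mice by 0.37 for Cacna2d1 to 0.88 for Cacnb2. That to the neuron markers differed by -0.78 for Cacna2d1 to -0.26 for Cacnb2, and both are again a description. The summed SMC markers of WT mice (1355 to 2111 CPM) and of Notch3+/+ mice (2439 to 4361 CPM) did not overlap. The fit with the SMC covariate therefore cannot separate these markers from the group. The part of the marker changes in the Cacna1c estimate was not tested.

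In the surrounding lists, 1 of 16 other family genes and 1 of 18 regulators were called, near the 7.92% of all genes, and 5 of 19 genes of calcium handling and contraction. Among the other family genes 1 was higher in WT mice at 12 months: Cacna2d2, an α2δ subunit, rose by 0.57 (SE 0.151, adjusted p 0.0289) from 29.8 ± 6.07 to 44.5 ± 11.5 CPM. Among the regulators 1 was lower: Gem, a small G protein that binds β subunits and inhibits the pore, fell by 0.55 (SE 0.131, adjusted p 0.0182). Of the genes of calcium handling and contraction all 5 called were lower: Pln fell by 0.92, Kcnmb1, the β1 subunit of the BK potassium channel, by 0.83, Mylk by 0.67, Prkg1, the cGMP-dependent kinase, by 0.48 and Atp2b4, a calcium pump of the plasma membrane, by 0.25 (adjusted p 0.000611 to 0.00573 by edgeR).

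The make-up of the channel was followed through 6 ratios of subunit transcripts within each library, which do not depend on how libraries are normalized. Over 3 comparisons and 18 tests, 0 passed the adjustment of the exact permutation test. The smallest p was that of Cacna1d over Cacna1c between the control groups, where the log2 ratio was higher by 0.23 in WT mice (exact permutation p 0.0351, adjusted p 0.558). Cacnb3 over Cacnb2 was higher by 0.37 in Notch3-/- than in Notch3+/+ mice (exact permutation p 0.0620, adjusted p 0.558). In TgNotch3R169C mice the T-type to L-type ratio Cacna1g over Cacna1c differed by 0.19 (exact permutation p 0.241) and Cacna1h over Cacna1c by 0.16 (exact permutation p 0.210).

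Between mice of the same group, all 7 subunits went up and down with the neuron markers. With the group means removed, Pearson's r between the log2 CPM of a subunit and the mean of the 12 neuron markers over 32 mice was 0.80 for Cacna2d1, 0.66 for Cacnb3, 0.61 for Cacnb2, 0.54 for Cacna1h, 0.47 for Cacna1g, 0.46 for Cacna1c and 0.44 for Cacna1d. All 7 passed a permutation test within groups after adjustment over 14 tests (adjusted p 0.00014 to 0.031). The share of all genes that would pass this test was not computed, so the count does not set the subunits apart from other genes. For Cacna2d1 the unadjusted p of 1e-05 is the smallest that 100000 permutations can give. Spearman's rho was 0.76 for Cacna2d1 and 0.42 to 0.62 for the others, and that of Cacna1d had an adjusted p of 0.053.

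Within single groups of 8 the relation with neuron markers was positive in each case and uneven in size. For Cacna2d1 r lay between 0.67 and 0.91 in the 4 groups. For Cacna1c it lay between 0.37 and 0.58, and for Cacna1d between 0.08 in Notch3+/+ and 0.90 in TgNotch3R169C mice. Without TgNotch3R169C replicate 5 and Notch3+/+ replicate 3, the libraries farthest from the median of the marker mean, r was 0.71 for Cacna2d1, 0.46 for Cacnb3 and 0.45 to 0.60 for the other 5.

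Over the 32 mice no such relation with the SMC markers was detected. Their mean varied less between mice of a group (SD 0.19 to 0.26 in log2 units) than that of the neuron markers (0.41 to 0.66). A relation with SMC content was therefore harder to detect, and its absence here does not show that a subunit is not from SMCs. For the mean of the 8 SMC markers r lay between -0.29 for Cacna1d and -0.01 for Cacna1c, and 0 of 7 passed after adjustment, with adjusted permutation p-values from 0.209 to 0.960. For Cacna1c, the pore on which arterial contraction depends, r with the SMC markers was 0.22 in Notch3+/+, -0.16 in Notch3-/-, 0.19 in WT and -0.26 in TgNotch3R169C mice. Single groups reached further for others: r was -0.72 in Notch3+/+ and -0.62 in Notch3-/- mice for Cacna1g, and -0.66 in TgNotch3R169C mice for Cacna1d. These values within groups were not tested. CPM values share a total, so that a library with more of 1 tissue has less of the rest, and the correlations describe libraries and not cells. As a description with no test, r with the other marker lists over the 32 mice reached a size like that with neurons for some subunits. With pericyte markers it was -0.53 for Cacnb2, -0.48 for Cacna1d, -0.46 for Cacna2d1 and -0.42 for Cacna1h, and with fibroblast markers -0.49 for Cacnb2. It was 0.45 for Cacna1h with oligodendrocyte markers, 0.43 for Cacnb2 with astrocyte markers, 0.41 for Cacna1d with pituitary markers, -0.40 for Cacna1c with choroid plexus markers and -0.48 for Cacna2d1 with macrophage and microglia markers.

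**Figure D4:**
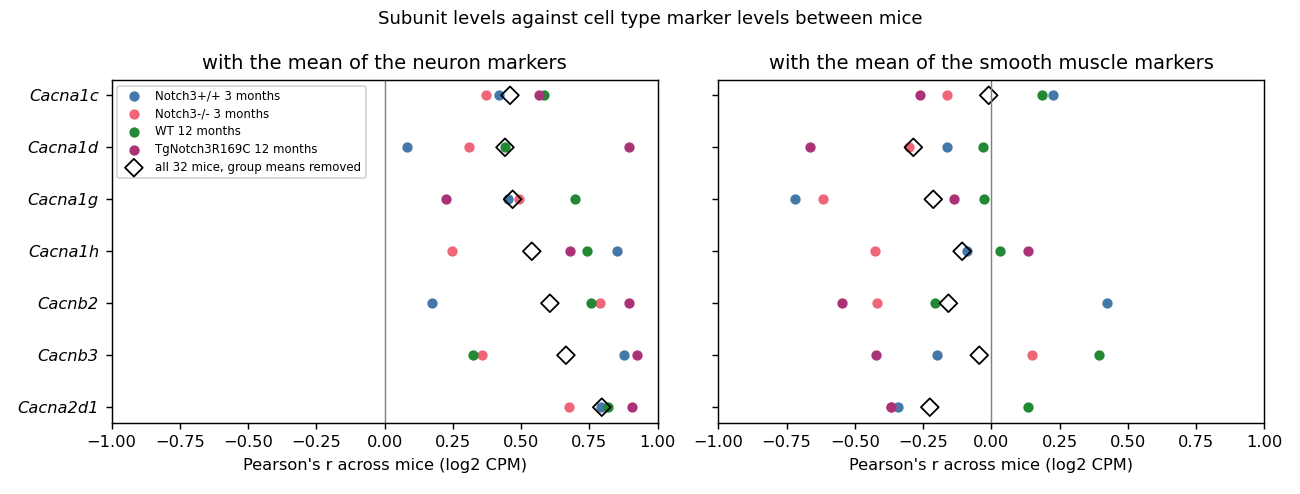
Pearson's r across mice between the log2 CPM of each subunit and the mean of the neuron markers (left) or the SMC markers (right), for each group of 8 mice (coloured points) and for all 32 mice with group means removed (diamonds). All points on the left lie above 0, and the diamonds on the right lie between -0.29 and -0.01.

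The subunits also went together with each other. Spearman's rho between pairs of the 7, over the 32 libraries with group means removed, was highest for Cacna1c with Cacna1h at 0.76 and for Cacnb2 with Cacna2d1 at 0.73, and lowest for Cacna1g with Cacnb3 at 0.26. These pairs share their libraries, and the values are a description. The part of neural RNA in these values was not tested.

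The genes most like each subunit over the 32 libraries were taken by the same rho from 15643 genes, as a description with no test. For Cacna1c they were Epb41l1 (0.82), Prickle2 (0.80) and Plcb1 (0.78), and for Cacna1d Kcnd3 (0.79), Myt1 (0.78) and Ano8 (0.76). For Cacna1g they were Psg16 (0.74), Tmem25 (0.74) and Plxdc1 (0.74), and for Cacna1h Bcl11b (0.82), Tnr (0.82) and Cntnap3 (0.82). For Cacnb2 they were Enox1 (0.87), Shisa9 (0.85) and Sntg1 (0.85), and for Cacnb3 Usp13 (0.87), Dact3 (0.86) and Nol4l (0.84). For Cacna2d1 they were Il1rapl1 (0.90), Celsr3 (0.89) and Gdap1 (0.89). None of the 21 is on the list of SMC markers or of neuron markers used above.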

How the data were processed

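Brain arteries of 32 mice (8 per group) were profiled by stranded, poly(A)-selected RNA sequencing. The authors deposited raw counts of reads per Ensembl gene, without normalization. The submitters' processing notes name mm39, bcl2fastq 2.20.0.422, cutadapt 1.10, Bowtie2 2.2.8, STAR 2.5.3a and HTSeq 0.6.1p1. All columns were matched to a library by name, and no libraries were duplicates. Symbols were given to 52081 genes by identifier. Exon lengths, chromosomes and sequences came from GENCODE vM21, which is of another build than the counts, so no gene coordinates are given. On it, antisense genes overlap exons of Cacna1d (Chdh), Cacna1h (Tpsg1) and Cacnb2, and how the counting used strand is not given in the sources used here.

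Counts were tested in R 4.3.3 with edgeR 4.0.16 (filterByExpr, TMM, quasi-likelihood test) between the groups compared, with Benjamini-Hochberg adjustment over all genes tested, called under 0.05. Intervals are 95% CIs from that fit and hold the variation between mice. The study's own test, DESeq2 (1.42.0 here), limma voom (3.58.1), other normalizations and filters, marker covariates, the replicate number as a block and leaving out each library were alternatives. CPM is per TMM-scaled library size over all 32 libraries, and log2 CPM has a prior of 2 counts. The fits were tested on simulated data. Ratios used a prior of 0.5 counts. Named genes are Notch3, the 7 subunits, every called gene of the 3 surrounding lists, and the 3 genes most like each subunit. Genes such as Cacna1a were named outside this rule after their values were seen. The subunits and lists were chosen with earlier results of these data known. Whether libraries of a group came from separate litters or days is not given. The p-values treat the mice of a group as independent.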

Additional observations from a re-analysis of the deposited data

Results flagged for a closer look

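Of 28 sets of 8 mice (7 subunits in 4 groups), 2 had a mouse far from the others by Dixon's ratio, the gap to the nearest mouse divided by the range, where chance gives about 1.4. For Cacnb3, Notch3+/+ replicate 3 was highest at 88.2 CPM against 54.5 CPM for the next mouse, a ratio of 0.781. That library also had the highest neuron sum (1207 CPM) and the highest Cacna2d1 (77.6 CPM) of its group, and the part of neural RNA in the value was not tested. Without it, the log2 fold change of Cacnb3 was 0.22 in Notch3-/- mice and -0.06 between the control groups. For Cacna1h, TgNotch3R169C replicate 6 was highest at 53.6 CPM against 35.8 CPM, a ratio of 0.6, and without it the log2 fold change of Cacna1h in TgNotch3R169C mice was 0.20.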

How the results depend on the processing

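In Notch3-/- mice, in TgNotch3R169C mice and for the difference between their changes, 0 of 7 subunits were called under all alternatives run and with any 1 library left out. Between the control groups the count of 1 became 2 with DESeq2, 2 with all 4 groups in 1 fit, 3 with the neuron covariate (adding Cacna1h, adjusted p 0.00935, and Cacna2d1, adjusted p 0.00256), 0 with the SMC covariate and 0 with the choroid plexus covariate, which was chosen after seeing the data. With 1 library left out it ranged from 0 to 2, and was 2 without WT replicate 3. With the SMC covariate the SE of Cacna1c there was 0.173 against 0.0822 without it, and 0 of all genes were called. Some uncalled estimates changed sign: Cacnb3 in Notch3-/- mice (-0.0123 with the SMC covariate), Cacnb2 in TgNotch3R169C mice (-0.0341 with the neuron covariate), Cacna1g between the controls (0.0571 with the choroid plexus covariate, and -0.183 to 0.00675 with 1 library left out, the sign turning without WT replicate 4) and the difference for Cacnb3 (-0.0601 with the neuron covariate, and -0.0693 to 0.127 with 1 library left out, the sign turning without Notch3+/+ replicate 3). By Spearman's rho the relation with SMC markers was 0.0070 for Cacna1c and 0.0748 for Cacnb3, and r for Cacnb3 was 0.0078 without the 2 farthest libraries.

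Counts over all genes moved more. In Notch3-/- mice 115 genes were called, 280 with DESeq2, 174 with all 4 groups and 16 with the SMC covariate. In TgNotch3R169C mice 20 were called, 74 with DESeq2, 13 with the neuron covariate, 11 with the choroid plexus covariate, and 11 to 26 with 1 library left out. Between the controls 1398 were called, 2365 with DESeq2, 287 with the choroid plexus covariate and 895 to 1621 with 1 library left out, and for the difference 65, against 153 with DESeq2. Replicate numbers did not pair the mice: deviations of same-numbered mice correlated at -0.13 to 0.34 in the Notch3-/- comparison and at -0.26 to 0.42 in the TgNotch3R169C comparison, with 3 of 8 and 1 of 8 mice closest to their own number. With the replicate block 0, 0, 1 and 0 subunits were called in the 4 comparisons, and 97, 6, 715 and 63 of all genes. At these depths the subunits' precision was set by the spread between mice: the lowest count, for Cacnb2, was 211.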
